A study of Homo sapiens with 6 samples.

Results

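Kinesins are motor proteins that walk along microtubules, and the human genes of the family carry the symbol KIF with a number, or KIFC1, KIFC2 and KIFC3. All protein-coding genes of at least 1 kb with such a symbol were taken, which gave 42 kinesin genes of 19451 protein-coding genes in all. The rule uses symbols alone, and it was set with earlier results of these data known. The genes were sorted by textbook role into 14 mitotic kinesins, 16 kinesins known for transport in neurons, and 12 others. Most of the 12 act in cilia, signalling or other transport, and the depolymerases KIF2A and KIF24 were also placed there. Of the transport kinesins, 7 are enriched in neurons and 9 work in neurons and in many other cells.

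The cells were unperturbed HEK293T, which come from human embryonic kidney, express the SV40 large T antigen and divide rapidly in culture. Chromatin immunoprecipitation with sequencing (ChIP-seq) was done once per antibody. One pair of antibodies, from CST and from Abcam, was raised against the histone variant H2A.Z (H2AZ in the labels). The others recognise the variant H3.3, H4 acetylated at lysine 16 (H4K16ac) and H3 dimethylated at lysine 79 (H3K79me2), and a library of input chromatin was not analysed here. Each of the 5 lists of enriched regions (peaks), of 44634 to 76748 peaks, stands on 1 library of 1 line. No spread between cultures could be measured, and no difference was tested. Peak strengths are the authors' −log10 q-values, which rank peaks within a list and cannot be compared between lists. The lists start at a −log10 q of about 2 and the depth of sequencing is unknown, so a missing peak means that none was called. Of the marker genes checked in the same lists, an H3K79me2 peak lay within 1 kb of an end of 3 of 12 neuron markers, 3 of 10 kidney epithelial markers and 0 of 6 blood cell markers, against 55.4% of all protein-coding genes. H4K16ac lay at 5 neuron, 9 kidney epithelial and 3 blood cell markers, against 55%, and H2AZ Abcam at 10 neuron, 5 kidney epithelial and 2 blood cell markers, against 71.1%. PTPRC and HBB, of blood cells, had no peak of any list within 1 kb of an end.

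H2A.Z and H3.3 take the place of the usual H2A and H3 in some nucleosomes, among them those around promoters that are in use. Transcription was not measured here, so a peak of either variant does not by itself show a promoter in use. H4K16ac is written by the acetyltransferase KAT8, and H3K79me2 by DOT1L over the beginning of transcribed genes. Mitotic kinesins build the spindle, move chromosomes and complete cell division, and many of their genes are transcribed late in the cell cycle. That timing is known to run through a promoter element called the cell cycle genes homology region (CHR), often with CCAAT boxes nearby. Transport kinesins carry vesicles, mitochondria and other cargo along axons and dendrites.

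All 16 transport kinesin genes carried H2A.Z at an end, whereas 3 of the 14 mitotic genes did not, and H3.3 lay at 8 of 14 mitotic genes and at 14 of 16 transport genes. A gene was counted when a peak lay within 1 kb of either of its ends. By this count 36 of 42 kinesin genes carried H2AZ CST, against 70.7% of all protein-coding genes, and 36 carried H2AZ Abcam, against 71.1%. H3.3 lay at 30 kinesin genes, against 64.5% of all genes, H4K16ac at 24, against 55%, and H3K79me2 at 32, against 55.4%. Among the mitotic genes, 11 of 14 had H2AZ CST and 11 had H2AZ Abcam, and all 16 transport genes had both. H4K16ac lay at 6 mitotic genes and 8 transport genes, and H3K79me2 at 12 mitotic genes and 15 transport genes. The share of mitotic genes with H3K79me2, 85.7%, lay above that of all genes, and their share with H3.3, 57.1%, lay below that of all genes. KIF2B and KIF4B, which had no end peak of any list, are among the 14 mitotic genes. Without them, a choice made after seeing the data, each H2AZ list lay at 11 of 12 mitotic genes, against 70.7% (CST) and 71.1% (Abcam) of all genes. H3.3 then lay at 8 of 12 mitotic genes, against 64.5% of all genes. The order for H3.3 turned when only the 10000 strongest peaks of each list were kept, which left H3.3 at 5 of 14 mitotic genes (35.7%), 5 of 16 transport genes (31.2%) and 28.3% of all genes. All 5 lists met at 5 mitotic genes, 6 transport genes and 5 of the others, or 16 kinesin genes in all, against 38.2% of all protein-coding genes.

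**Figure D1:**
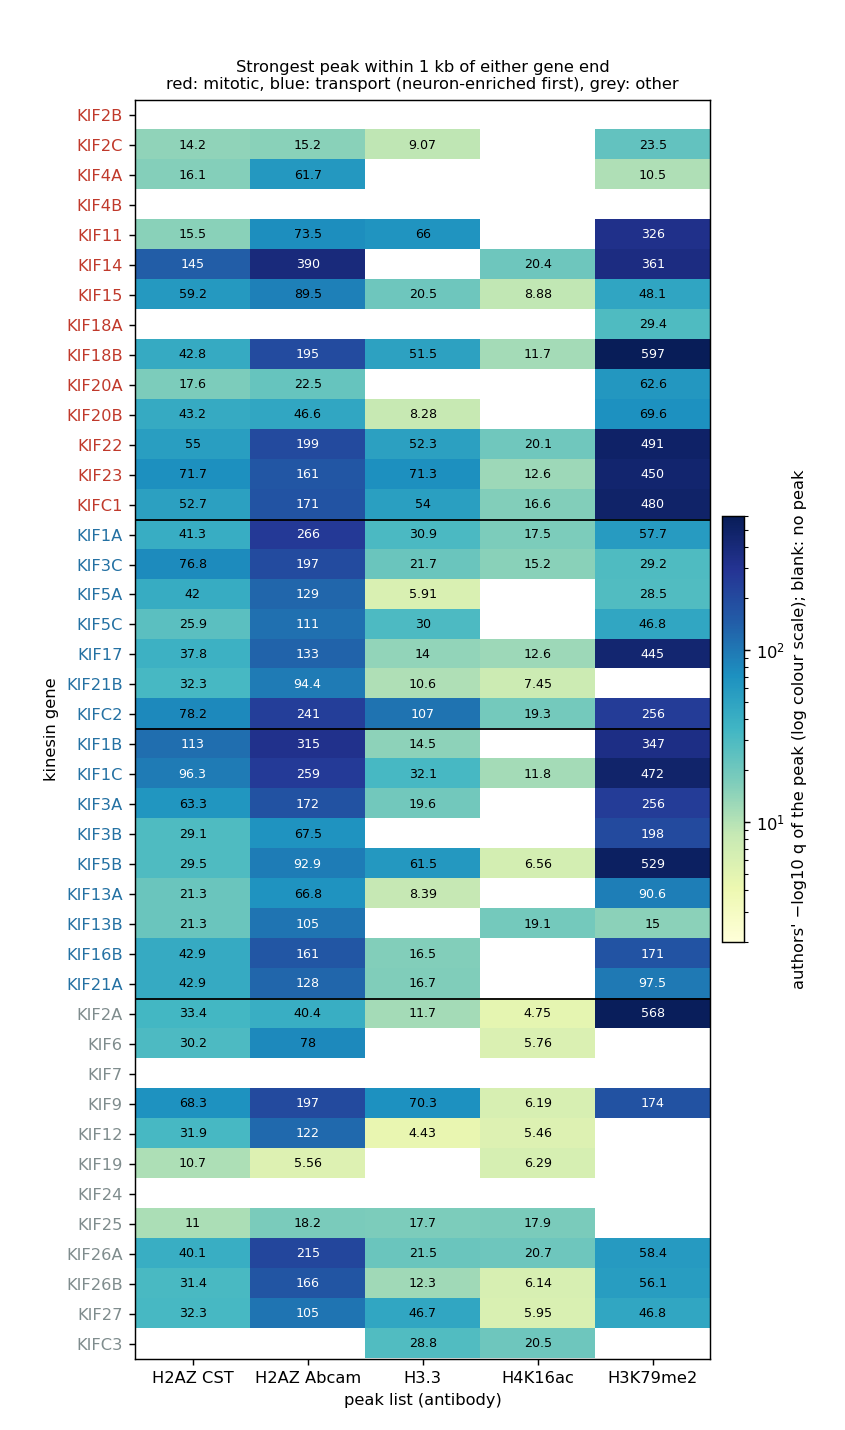
The colour and the printed number give the authors' −log10 q of the strongest peak within 1 kb of either gene end, for each of 42 kinesin genes (rows) and 5 peak lists (columns), and blank cells had no peak. Both H2A.Z columns are filled for all 16 transport genes (blue names), and KIF2B, KIF4B, KIF7 and KIF24 are blank in every list.

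Within the transport group, the 7 neuron-enriched genes all had H2A.Z and H3.3, 5 had H4K16ac and 6 had H3K79me2. Of the 9 transport genes used in neurons and other cells, 9 had H2A.Z, 7 had H3.3, 3 had H4K16ac and 9 had H3K79me2. Of the 12 remaining kinesin genes, 9 had H2A.Z, 8 had H3.3, 10 had H4K16ac and 5 had H3K79me2. Of the 3 groups, the remaining genes had the lowest share with H3K79me2, at 41.7%, and the highest share with H4K16ac, at 83.3%.

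Windows at either end can also catch the far end of a gene or a neighbour, so the count was repeated within 1 kb of the annotated starts of the 34 kinesin genes for which RefSeq's promoter table gives one. H2AZ CST lay at 31 of these starts, against 73.4% of the 15412 protein-coding genes with a start, and H2AZ Abcam at 30, against 74%. H3.3 lay at 25, against 66.1%, H4K16ac at 18, against 54.5%, and H3K79me2 at 29, against 59.6%. By group, H3.3 marked 7 of 14 mitotic starts and 11 of 12 transport starts, and H4K16ac marked 6 mitotic starts and 5 transport starts. H3K79me2 marked 12 mitotic starts and all 12 transport starts. The order of the groups in H3.3 was therefore the same at starts as at either end.

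**Figure D2:**
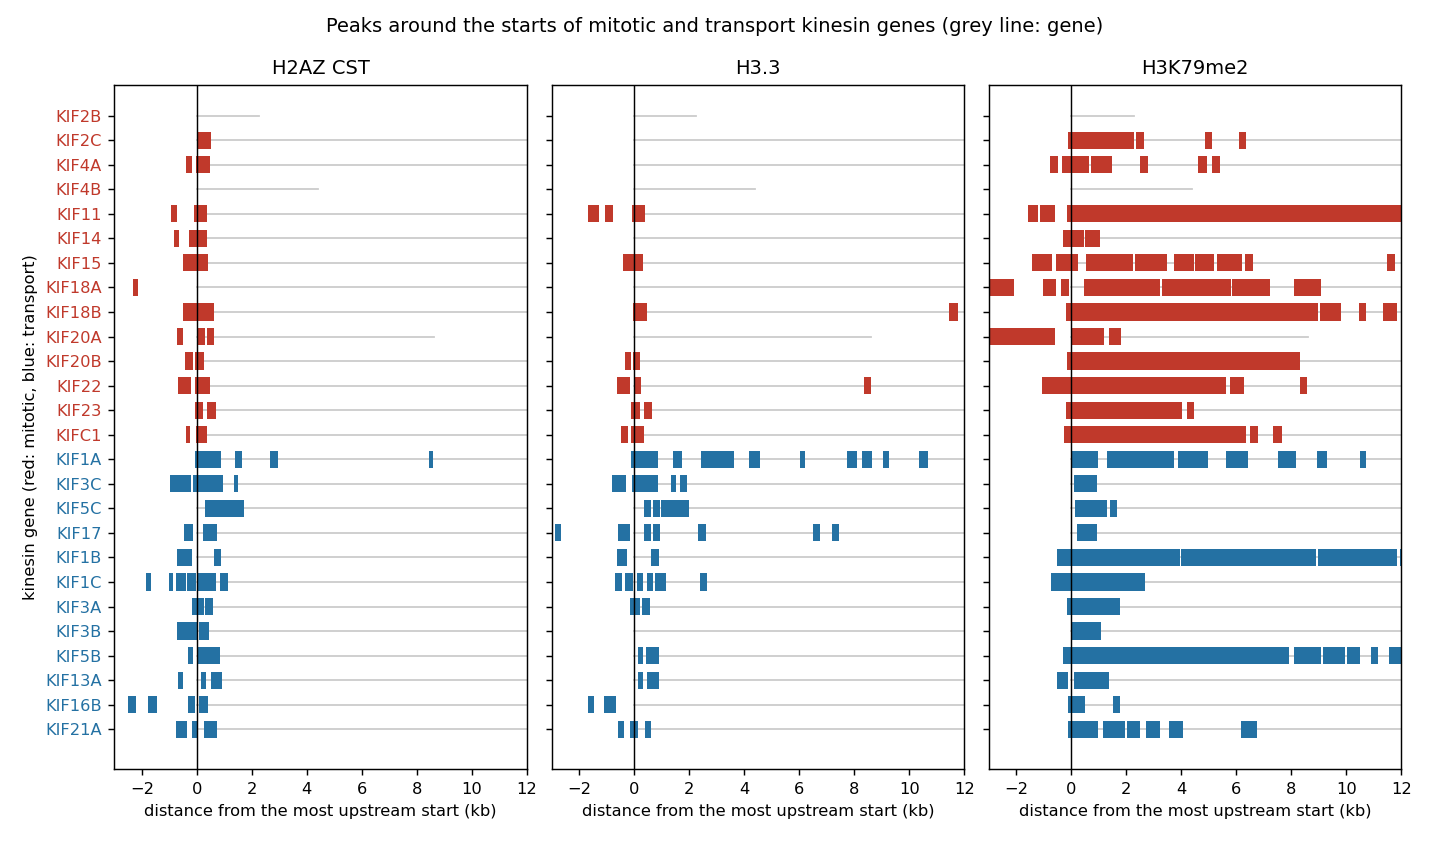
Bars mark peaks of H2AZ CST, H3.3 and H3K79me2 from 3 kb before to 12 kb after the most upstream annotated start (vertical line) of 14 mitotic genes (red, above) and 12 transport genes (blue, below), and the grey line marks the gene. H2AZ CST bars are short and most lie near the start, and H3K79me2 runs several kb into KIF11, KIF18B and KIF20B among mitotic genes and into KIF1B and KIF5B among transport genes.

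A kinesin gene was counted as having H2A.Z without H3.3 when H2AZ CST lay at an end and no H3.3 peak lay in the gene or within 5 kb of it. This held for 4 of 42 kinesin genes, or 9.52%, against 7.09% of all protein-coding genes, so the share was near that of all genes. They were 2 mitotic genes, 1 transport gene and 1 of the others. The same 4 genes were found with H2AZ Abcam, with both antibodies together, and with H3.3 sought out to 10 kb. With peaks of a −log10 q of at least 5 in both lists, KIF3B and KIF12 joined them, which made 6 genes (14.3%), against 7.59% of all genes. To show the sequence under both patterns, the promoters of 3 of these genes are printed, with those of the 3 genes with both variants and the strongest H3.3 that RefSeq's table (GRCh38.p14) holds.

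Printed are the 250 bases before the most upstream start, 5′ to 3′ on the gene's strand, in lower case with the letters of a CHR (TTTGAA or TTCGAA) or a CCAAT box on either strand in capitals. KIF14, a cytokinesis kinesin that binds citron kinase, KIF20A, which carries the chromosomal passenger complex to the midzone, and KIF6, a little studied kinesin, had H2A.Z without H3.3. KIF23, the motor subunit of centralspindlin, KIF9, a kinesin of motile cilia, and KIF11, also known as Eg5, which slides spindle poles apart, had both. The KIF14 stretch is chr1:200620752-200621001 on the minus strand, that of KIF20A chr5:138178862-138179111 on the plus strand and that of KIF6 chr6:39725409-39725658 on the minus strand. The KIF23 stretch is chr15:69414099-69414348 on the plus strand, that of KIF9 chr3:47282800-47283049 on the minus strand and that of KIF11 chr10:92592880-92593129 on the plus strand.
KIF14: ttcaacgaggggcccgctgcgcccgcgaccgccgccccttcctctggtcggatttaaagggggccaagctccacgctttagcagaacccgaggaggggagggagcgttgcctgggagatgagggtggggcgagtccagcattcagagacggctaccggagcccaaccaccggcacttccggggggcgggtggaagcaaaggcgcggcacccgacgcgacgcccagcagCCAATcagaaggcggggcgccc
KIF20A: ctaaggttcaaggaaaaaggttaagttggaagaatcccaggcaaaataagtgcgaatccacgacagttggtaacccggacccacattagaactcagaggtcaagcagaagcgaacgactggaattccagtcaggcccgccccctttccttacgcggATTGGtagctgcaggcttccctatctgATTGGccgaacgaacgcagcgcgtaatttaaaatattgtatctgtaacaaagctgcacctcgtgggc
KIF6: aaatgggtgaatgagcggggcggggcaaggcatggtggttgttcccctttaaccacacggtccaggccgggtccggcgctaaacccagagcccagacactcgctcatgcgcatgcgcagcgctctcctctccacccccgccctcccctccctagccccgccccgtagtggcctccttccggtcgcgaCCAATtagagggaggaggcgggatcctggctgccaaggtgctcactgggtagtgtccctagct
KIF23: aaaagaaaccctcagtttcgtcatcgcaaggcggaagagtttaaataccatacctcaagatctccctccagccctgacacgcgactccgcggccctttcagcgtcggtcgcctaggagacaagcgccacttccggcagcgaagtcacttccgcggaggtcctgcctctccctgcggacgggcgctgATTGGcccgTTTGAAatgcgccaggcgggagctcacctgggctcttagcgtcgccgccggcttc
KIF9: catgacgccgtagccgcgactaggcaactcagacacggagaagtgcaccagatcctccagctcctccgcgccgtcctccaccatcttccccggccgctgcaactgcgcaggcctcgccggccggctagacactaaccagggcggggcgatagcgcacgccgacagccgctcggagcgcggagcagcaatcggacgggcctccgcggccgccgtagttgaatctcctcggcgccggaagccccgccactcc
KIF11: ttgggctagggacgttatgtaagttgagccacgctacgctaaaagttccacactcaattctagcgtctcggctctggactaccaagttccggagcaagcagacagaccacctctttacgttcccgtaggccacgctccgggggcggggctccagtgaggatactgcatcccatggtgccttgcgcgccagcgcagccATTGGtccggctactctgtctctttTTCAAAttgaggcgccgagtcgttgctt

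KIF14 had the strongest H2A.Z end peaks of all kinesin genes. Its H2AZ CST peak had a −log10 q of 145 and 38.6-fold enrichment over 654 bp, with the summit 117 bases after the start, and its H2AZ Abcam peak had a −log10 q of 390 and 59.6-fold enrichment over 1383 bp. H4K16ac at 20.4 and H3K79me2 at 361 had their summits 128 and 105 bases after the start of KIF14. No H3.3 peak lay in the 69.3 kb gene or within 10 kb of it. At KIF11, where H2AZ CST was far weaker at 15.5, H3.3 reached 66.0 and 21.5-fold enrichment with its summit 56 bases after the start. At KIF23 both variants formed a pair of narrow peaks, with H3.3 summits 48 and 505 bases after the start, at 71.3 and 42.3, and H2AZ CST summits 74 and 502 bases after it, at 49.3 and 71.7. H2A.Z was thus strong at KIF14 and at KIF23, and of these genes only KIF23 had an H3.3 peak.

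KIF20A was weak in both H2A.Z lists. H2AZ CST was 17.6 and H2AZ Abcam 22.5, with summits 114 and 139 bases after the start. The strongest H3K79me2 peak at an end of KIF20A, at 62.6, had its summit at position −1858 from the start, on the side of the neighbouring BRD8, and the strongest one inside KIF20A was 16.6. KIF6 had H2A.Z at 30.2 (CST) and 78.0 (Abcam), H4K16ac at 5.76, and no H3K79me2 peak in any part of its 395.4 kb. KIF9, with an end of KLHL18 within 1 kb, had H2A.Z at 68.3 (CST) and 197 (Abcam), H3K79me2 at 174, H3.3 at 70.3 and H4K16ac at 6.19. KIF6 and KIF20A were therefore much weaker in H2A.Z than KIF14, although all of them lacked H3.3.

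**Figure D3:**
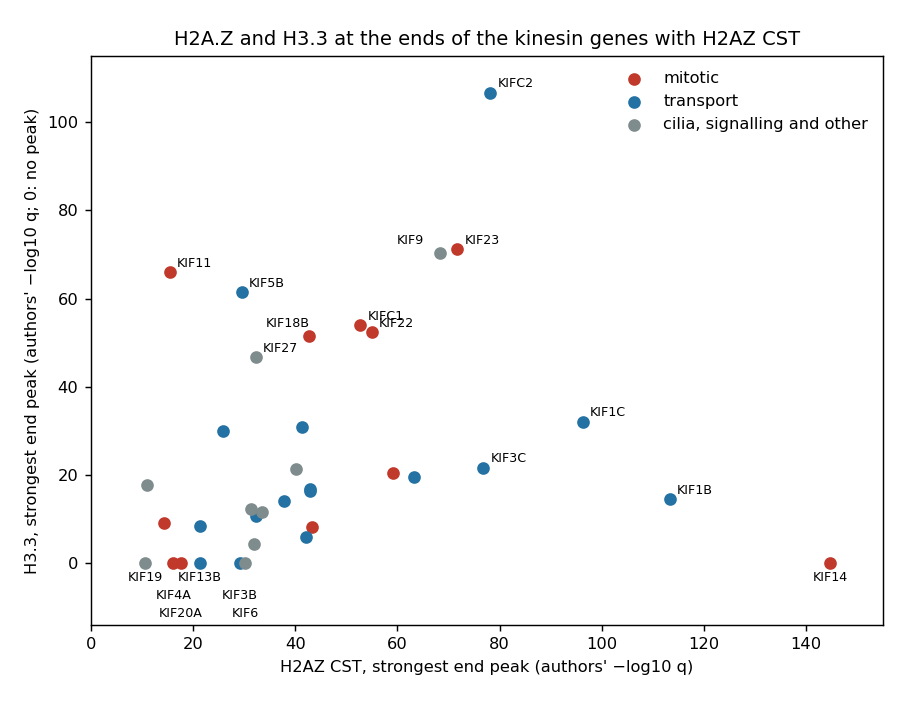
Each point is 1 of the 36 kinesin genes with an H2AZ CST end peak, placed by the authors' −log10 q of its strongest H2AZ CST end peak (horizontal) and of its strongest H3.3 end peak (vertical, 0 where none was called). KIF14 lies far to the right at 145 with no H3.3, and KIF11 lies at the left at 15.5 with H3.3 at 66.0.

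Sequence was compared over the whole RefSeq promoter, from 250 bases before to 50 after the most upstream start, for the 34 kinesin genes in that table. A CHR stood in 11 of 14 mitotic promoters, 1 of 12 transport promoters and 1 of 8 other kinesin promoters, against 13.0% of 15412 protein-coding promoters. KIF2B, KIF2C and KIF20A were the mitotic genes without these letters, which says only that they are not in this window. The transport gene with a CHR was KIF5B, and the other gene was KIF24. CCAAT stood in 11 mitotic, 4 transport and 3 other kinesin promoters, against 36.1% of all. CHR and CCAAT stood together in 10 mitotic promoters and 1 transport promoter, against 5.45% of all. The GC box GGGCGG, on either strand, stood in 12 of 14 mitotic and 11 of 12 transport promoters, against 59.4%, and TATAAA in 2 mitotic and 0 transport promoters, against 8.99%. The median GC content was 62% in mitotic promoters, 71.8% in transport promoters and 63% in all. These are matches of letters, and no binding was measured.

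In 6 mitotic genes the CHR lay before the start, as in the KIF23 and KIF11 stretches already shown, where it begins at −55 and −28. In KIF14 it begins at the second base after the start, beyond the printed stretch. The 80 bases before the start of the other 4 genes are printed to show how close the element lies to the start and, in KIF4A, KIF18A and KIF22, to a CCAAT box. The stretches are chrX:70290024-70290103 on the plus strand for KIF4A, chr3:44761714-44761793 on the plus strand for KIF15, chr11:28108157-28108236 on the minus strand for KIF18A and chr16:29790671-29790750 on the plus strand for KIF22, all in GRCh38.p14 from RefSeq, with CHR and CCAAT letters of either strand in capitals.
KIF4A: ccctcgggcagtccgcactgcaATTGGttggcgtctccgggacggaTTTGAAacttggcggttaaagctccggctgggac
KIF15: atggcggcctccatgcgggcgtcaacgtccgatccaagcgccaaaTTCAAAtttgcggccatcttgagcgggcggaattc
KIF18A: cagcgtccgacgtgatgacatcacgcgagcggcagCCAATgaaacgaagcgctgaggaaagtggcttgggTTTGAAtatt
KIF22: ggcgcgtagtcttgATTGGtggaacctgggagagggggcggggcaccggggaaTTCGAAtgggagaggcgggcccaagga

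The CHR begins at −34 in KIF4A, −35 in KIF15, −10 in KIF18A and −27 in KIF22. The 7 mitotic genes with H3.3 at the start, KIF11, KIF15, KIF18B, KIF20B, KIF22, KIF23 and KIFC1, all held a CHR. Of the mitotic genes without H3.3 there, KIF4A, KIF4B, KIF14 and KIF18A held a CHR, and KIF2B, KIF2C and KIF20A did not. A relation between the element and H3.3 was not tested. Of the lists set beside the kinesins, 15 of 19 promoters of mitotic spindle and cytokinesis partners held a CHR, as did 0 of 8 promoters of light chains and adaptors and 1 of 19 of dynein and dynactin. The promoter of KIF4B, an intronless near copy of KIF4A, also held a CHR and CCAAT, shifted by 37 bases against KIF4A. At this shift 163 of 263 bases of the pair were identical.

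The other mitotic genes spanned a wide range of signals. KIF18B, a motor at the plus ends of astral microtubules, had H2A.Z at 42.8 (CST) and 195 (Abcam), H3K79me2 at 597, H3.3 at 51.5 and H4K16ac at 11.7. This was the strongest H3K79me2 end peak of any kinesin gene. KIF22, which pushes chromosome arms away from the poles, had H2A.Z at 55.0 (CST) and 199 (Abcam), H3K79me2 at 491, H3.3 at 52.3 and H4K16ac at 20.1. KIFC1, a minus-end motor that bundles spindle poles, had H2A.Z at 52.7 (CST) and 171 (Abcam), H3K79me2 at 480, H3.3 at 54.0 and H4K16ac at 16.6, and KIF23 had H2A.Z at 71.7 (CST) and 161 (Abcam), H3K79me2 at 450, H3.3 at 71.3 and H4K16ac at 12.6. These 4 genes carried all 5 lists, as did KIF15. The far end of KIF22 lies beside MAZ and that of KIFC1 beside PHF1, and some of these maxima sit there. At the start itself, H3.3 was 19.0 for KIF22 and 51.9 for KIFC1, and H4K16ac was 12.9 for KIF22 and 9.51 for KIFC1. H2A.Z at the start of KIFC1 was 30.7 (CST) and 143 (Abcam).

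KIF15, which can share the task of KIF11, had H2A.Z at 59.2 (CST) and 89.5 (Abcam), H3K79me2 at 48.1, H3.3 at 20.5 and H4K16ac at 8.88, with KIAA1143 at the same end. KIF20B, a kinesin of late cell division, had H2A.Z at 43.2 (CST) and 46.6 (Abcam), H3K79me2 at 69.6, H3.3 at 8.28 and no H4K16ac. KIF2C, the depolymerase known as MCAK, had H2A.Z at 14.2 (CST) and 15.2 (Abcam), H3K79me2 at 23.5, H3.3 at 9.07 and no H4K16ac, and its H3.3 peak lay only at the far end. KIF4A, which works on chromosome arms and in the midzone, had H2A.Z at 16.1 (CST) and 61.7 (Abcam), H3K79me2 at 10.5 and no H3.3 or H4K16ac, and PDZD11 has an end beside it. KIF11 had H2A.Z at 15.5 (CST) and 73.5 (Abcam), H3K79me2 at 326, H3.3 at 66.0 and no H4K16ac. All of these starts had H2A.Z, and KIF2C and KIF4A lacked H3.3 there. KIF18A, which limits the length of kinetochore microtubules, stood apart. It had no H2A.Z, H3.3 or H4K16ac peak at an end. Its strongest H3K79me2 peak, at 29.4, reached into the window at its start, where METTL15 also has an end. This peak lay inside KIF18A, with its summit 2526 bases after the start. A weak H2AZ CST peak, at 18.2, had its summit at −2177 from the start of KIF18A.

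KIF2B, a depolymerase, and KIF4B had no peak of any list at an end. KIF7, a Hedgehog signalling kinesin, and KIF24, a depolymerase at centrioles, also had none, so 4 kinesin genes had none, against 21.5% of all protein-coding genes. KIF2B (chr17:53822927-53825193) and KIF4B (chr5:155013755-155018141) are intronless genes, and for KIF4B a read that also matches KIF4A cannot be placed uniquely. The sources used here do not say how such reads were treated, so the empty KIF4B is uncertain. KIF7 and KIF24 differ from them, since the only start in the RefSeq table lies inside the annotated gene. At that start KIF7 had H2A.Z at 47.2 (CST) and 221 (Abcam), H3K79me2 at 203, H3.3 at 16.4 and H4K16ac at 22.7. KIF24 had H2A.Z at 73.5 (CST) and 160 (Abcam), H3K79me2 at 50.4, H3.3 at 13.2 and no H4K16ac at that start.

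The transport gene with H2A.Z and no H3.3 was KIF13B, a motor for membrane cargo. It had H2A.Z at 21.3 (CST) and 105 (Abcam) near one end, with H3K79me2 at 15.0 there, and H4K16ac at 19.1 near the other end. When H3.3 was sought within 1 kb of the ends alone, KIF4A, KIF3B and KIF19 joined the list, which made 7 genes (16.7%), against 10.6% of all genes. At annotated starts, 6 of 34 kinesin genes had H2AZ CST without H3.3 there, against 11.1% of all genes with a start. These were the mitotic KIF2C, KIF4A, KIF14 and KIF20A, the transport gene KIF3B, and KIF6. Mitotic genes made up 4 of 14 and transport genes 1 of 12 by this count. With only the 10000 strongest peaks of each list, 8 genes (19.0%) had H2A.Z without H3.3, against 17.2% of all genes, among them KIF14 but not KIF20A, KIF13B or KIF6.

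Gene cover, the percentage of a gene's bases inside peaks, was higher for H3K79me2 in the mitotic group than in the transport group, and for H3.3 and H4K16ac it was highest in the neuron-enriched genes. The median H3K79me2 cover was 11.1% in mitotic genes, 1.97% in transport genes and 1.37% in all protein-coding genes. In length, this was a median of 5.74 kb in mitotic genes, 1.36 kb in transport genes and 0.71 kb in all genes. Mitotic genes were shorter, with a median of 31.0 kb, against 56.9 kb for transport genes and 25.6 kb for all genes. The largest mitotic values were 47.9% in KIF18B, 47.7% in KIF22 and 39.5% in KIFC1, and the smallest among genes with any was 1.40% in KIF14. The largest transport values were 30.3% in KIF5B, the widely used kinesin-1 heavy chain, 22.4% in KIFC2 and 13.7% in KIF1B, a carrier of mitochondria and vesicle precursors. The ranges of both groups overlapped. With the 10000 strongest peaks alone the median was 0.904% in mitotic genes, 0.602% in transport genes and 0% in all genes, so that the groups lay closer together.

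Median H3.3 cover was 0.47% in mitotic genes, 0.99% in transport genes and 0.83% in all genes. Median H4K16ac cover was 0.10% in mitotic genes, 0.88% in transport genes and 0.50% in all genes. The transport medians joined unlike genes. The 7 neuron-enriched genes had medians of 4.37% for H3.3 and 10.1% for H4K16ac, beside 1.77% for H3K79me2. The 9 transport genes used in neurons and other cells had 0.36% for H3.3 and 0% for H4K16ac, both below the mitotic medians. Without KIF2B and KIF4B, the empty intronless genes, the mitotic medians were 0.81% for H3.3 and 0.31% for H4K16ac. The first 10 kb after the start could be taken only in 11 mitotic and 12 transport genes. Left out were KIF2B, KIF4B and KIF20A, all at 0% H4K16ac cover, and KIF5A (0%), KIF13B (1.22%), KIF21B (15.0%) and KIFC2 (22.3%). Over the first 10 kb the H4K16ac median was 1.83% in mitotic genes, 0% in transport genes and 1.83% in all genes. This order is the reverse of that of the whole-gene medians, but not in the same genes. H3.3 had 3.11% in mitotic genes, 6.60% in transport genes and 2.81% in all genes over the first 10 kb. Among genes with an end peak, however, H3.3 peaks had a median −log10 q of 51.9 in mitotic genes, 18.2 in transport genes and 23.6 in all genes. Fewer mitotic genes had H3.3, and those that had it had stronger peaks at the median.

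Because a long gene dilutes a share, H3K79me2 was also taken over the first 10 kb after the most upstream start, in genes of at least 10 kb. The median was 64.0% in 11 mitotic genes (9.71% to 100%), 15.9% in 12 transport genes (7.17% to 98.7%) and 9.63% in 11551 protein-coding genes. Left out, for length or lack of a start, were KIF2B, KIF4B, KIF20A, KIF5A, KIF13B, KIF21B and KIFC2. Of these, KIF2B, KIF4B and KIF21B had no H3K79me2 peak in the gene. The first 10 kb of KIF11 were covered whole, by a single peak of 13483 bp, the widest H3K79me2 peak at a kinesin gene. KIF18B reached 97.5%, KIF20B 83.3% and KIF18A 76.1%, whereas KIF14 had 9.71% beside its strong peak at the start. Among transport genes KIF1B had 98.7%, KIF5B 96.7% and KIF1A 63.1%, and KIF16B and KIF17 had 7.40% and 7.17%. KIF2A, a depolymerase placed outside both groups, had 99.3%. The mitotic median was thus the higher one, and the range of each group took in low and high genes.

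By distance, the genes of at least 15 kb with a start began alike in both groups and parted within a few kb. In the first kb after the start, H3K79me2 peaks covered on average 91.2% of bases in 10 mitotic genes, 89.2% in 12 transport genes and 51.0% in 10037 genes, all of at least 15 kb. In the third kb the means were 77.4% in mitotic genes, 37.1% in transport genes and 32.3% in all genes. In the sixth kb they were 62.2% in mitotic genes, 19.8% in transport genes and 20.0% in all genes. In the tenth kb they were 18.7% in mitotic genes, 18.2% in transport genes and 13.1% in all genes. The mitotic mean stood above both other means through the tenth kb, by a small margin over transport genes in the last of these.

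**Figure D4:**
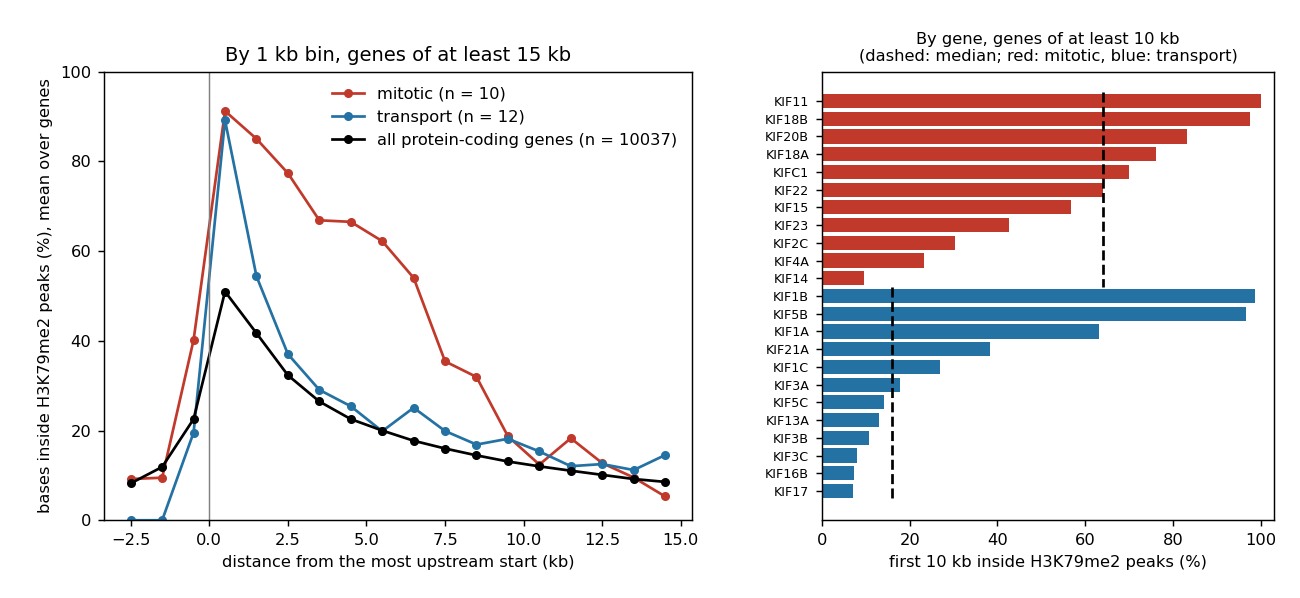
Left, the mean percentage of bases inside H3K79me2 peaks per 1 kb bin from the most upstream start, for 10 mitotic genes, 12 transport genes and 10037 protein-coding genes. Right, the percentage of the first 10 kb inside H3K79me2 peaks for mitotic genes (red, above) and transport genes (blue, below). Only genes of at least 10 kb with an annotated start are shown, with the group medians of 64.0% and 15.9% dashed.

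Among the neuron-enriched kinesins, KIF1A, a motor of synaptic vesicle precursors, had the broadest acetylation. H4K16ac covered 43.7% of its 107.6 kb in 86 peaks, and H3.3 covered 13.97% in 40 peaks, of which 37 overlapped H4K16ac. At its ends KIF1A had H2A.Z at 41.3 (CST) and 266 (Abcam), H3K79me2 at 57.7, H3.3 at 30.9 and H4K16ac at 17.5. Within 1 kb of any of its 3 annotated starts, H3K79me2 reached 132. Cut into 5 equal parts from its start, KIF1A had H4K16ac over 13.8%, 51.0%, 46.8%, 49.3% and 57.5% of bases. H3K79me2 lay over 30.5% of the first part and 5.9% of the second and was absent from the other 3. H4K16ac was thus lowest in the part where H3K79me2 was highest.

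KIF26A, a kinesin that lacks motor activity and acts in signalling, had a like layout. H4K16ac covered 55.8% of KIF26A and H3.3 36.6%, with 34 of 38 H3.3 peaks overlapped by H4K16ac, and H4K16ac reached 78.9% in the last of 5 parts. KIF21B, a neuronal motor of the kinesin-4 family, had H2A.Z at 32.3 (CST) and 94.4 (Abcam), H3.3 at 10.6, H4K16ac at 7.45 and no H3K79me2. Its 23 H4K16ac peaks covered 15.0% of the gene. KIFC2, a neuronal minus-end motor, had H3.3 over 49.2% of its 8.15 kb and the strongest H3.3 end peak of all kinesins, at 107. The ends of KIFC2 lie beside TMEM276 and FOXH1, from which the peak cannot be told apart.

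**Figure D5:**
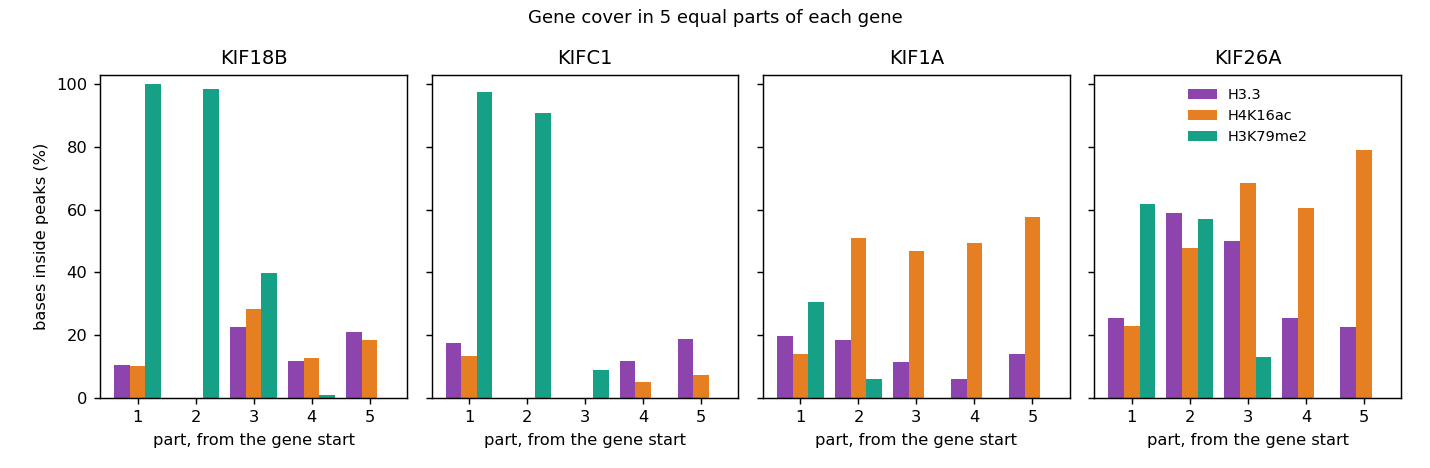
Bars give the percentage of bases inside H3.3, H4K16ac and H3K79me2 peaks in each of 5 equal parts of the mitotic KIF18B and KIFC1, the transport gene KIF1A and KIF26A, counted from the annotated start. H3K79me2 fills most of the first and second parts of KIF18B and KIFC1, and H4K16ac reaches 57.5% and 78.9% in the last part of KIF1A and KIF26A.

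The kinesin-1 heavy chains show how close relatives differed. KIF5B had H2A.Z at 29.5 (CST) and 92.9 (Abcam), H3K79me2 at 529, H3.3 at 61.5 and H4K16ac at 6.56. The neuron-enriched KIF5C had H2A.Z at 25.9 (CST) and 111 (Abcam), H3K79me2 at 46.8, H3.3 at 30.0 and no H4K16ac, and KIF5A had H2A.Z at 42.0 (CST) and 129 (Abcam), H3K79me2 at 28.5, H3.3 at 5.91 and no H4K16ac. H2A.Z was thus present at all 3, and H3.3 and H3K79me2 were strongest at KIF5B. In H3K79me2 cover KIF5B had 30.3%, KIF5C 0.94% and KIF5A 1.77%.

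The kinesin-2 motors serve cilia and axons. KIF3A had H2A.Z at 63.3 (CST) and 172 (Abcam), H3K79me2 at 256, H3.3 at 19.6 and no H4K16ac. KIF3B had H2A.Z at 29.1 (CST) and 67.5 (Abcam), H3K79me2 at 198 and no H3.3 or H4K16ac. The neuron-enriched KIF3C had H2A.Z at 76.8 (CST) and 197 (Abcam), H3K79me2 at 29.2, H3.3 at 21.7 and H4K16ac at 15.2. KIF3C, with the strongest H2AZ CST of these, thus had the weakest H3K79me2. KIF17, a further kinesin-2 motor, had H3K79me2 at 445 at the end beside DDOST and 25.5 at its own start. The strongest H2A.Z of KIF17 lay inside the gene, with the H2AZ CST summit 21219 bases after the start at 123 and the H2AZ Abcam summit 21243 bases after it at 244.

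The kinesin-3 genes KIF1B and KIF1C carried the strongest H2AZ CST end peaks of the transport group, and KIF1B and KIF1A, also a kinesin-3, the strongest H2AZ Abcam end peaks. KIF1B had H2A.Z at 113 (CST) and 315 (Abcam), H3K79me2 at 347, H3.3 at 14.5 and no H4K16ac, and KIF1C, which moves dense-core vesicles, had H2A.Z at 96.3 (CST) and 259 (Abcam), H3K79me2 at 472, H3.3 at 32.1 and H4K16ac at 11.8. KIF13A and KIF16B of this family were weaker than KIF1B and KIF1C in both H2A.Z lists. KIF13A had H2A.Z at 21.3 (CST) and 66.8 (Abcam), H3K79me2 at 90.6, H3.3 at 8.39 and no H4K16ac, and KIF16B, a motor of early endosomes, had H2A.Z at 42.9 (CST) and 161 (Abcam), H3K79me2 at 171, H3.3 at 16.5 and no H4K16ac. The H3.3 peaks of KIF16B lay before the start and covered none of the gene. KIF21A, of the kinesin-4 family, had H2A.Z at 42.9 (CST) and 128 (Abcam), H3K79me2 at 97.5, H3.3 at 16.7 and no H4K16ac.

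Of the remaining kinesins, KIF2A had H2A.Z at 33.4 (CST) and 40.4 (Abcam), H3K79me2 at 568, H3.3 at 11.7 and H4K16ac at 4.75, with more H3K79me2 than any other gene of its group. KIF26A had H2A.Z at 40.1 (CST) and 215 (Abcam), H3K79me2 at 58.4, H3.3 at 21.5 and H4K16ac at 20.7, and its relative KIF26B had H2A.Z at 31.4 (CST) and 166 (Abcam), H3K79me2 at 56.1, H3.3 at 12.3 and H4K16ac at 6.14. KIF27, a kinesin of motile cilia in mice, had H2A.Z at 32.3 (CST) and 105 (Abcam), H3K79me2 at 46.8, H3.3 at 46.7 and H4K16ac at 5.95. KIF12, KIF19 and KIF25 had H2A.Z and H4K16ac without H3K79me2, and H4K16ac was 5.46 at KIF12, 6.29 at KIF19 and 17.9 at KIF25. This value of KIF25 lay at its far end. At its start KIF25 had H4K16ac at 13.0, H2AZ CST at 6.59 and no H2AZ Abcam peak. KIF25-AS1 has an end within 1 kb of an end of KIF25, and BTBD17 has one beside KIF19. KIFC3, a minus-end motor of epithelial cells, had H3.3 at 28.8 and H4K16ac at 20.5 at an end, and no peak of another list there.

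Genes that work with kinesins were set beside them. All 24 spindle and cytokinesis partners had H2A.Z in both lists, 22 had H3.3, 17 had H4K16ac and 23 had H3K79me2. Over all protein-coding genes the shares were 70.7% (CST) and 71.1% (Abcam) for H2A.Z, 55.4% for H3K79me2, 64.5% for H3.3 and 55% for H4K16ac. Of the 22 genes of cytoplasmic dynein, which walks towards minus ends, and of dynactin, 21 had H2A.Z, 20 had H3.3, 17 had H4K16ac and 19 had H3K79me2. Of 11 kinesin light chains and adaptors, 10 had H2A.Z, 10 had H3.3, 9 had H4K16ac and 9 had H3K79me2, and KIFAP3 had none. All 3 lists were above these shares in every antibody's list. H3.3 lay at 57.1% of the mitotic kinesins, with the empty KIF2B and KIF4B counted, and at 91.7% of the spindle partners. In the first 10 kb the median H3K79me2 cover was 41.2% in 18 partners, 65.9% in 16 dynein and dynactin genes and 52.5% in 8 light chain and adaptor genes, against 9.63% in all genes. The kinesins checked that have other symbols were CENPE, the kinetochore kinesin, and STARD9. CENPE had H2A.Z at 28.9 (CST) and 71.9 (Abcam), H3K79me2 at 57.4, and neither H3.3 nor H4K16ac. STARD9 had H2A.Z at 54.4 (CST) and 164 (Abcam), H3K79me2 at 191, H3.3 at 9.57 and H4K16ac at 6.81.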

How the data were processed

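ChIP-seq was done in HEK293T cells with 1 library for each of 5 antibodies and 1 of input. The build was hg38 and the tools were MACS2 2.1.0, Bowtie 1.1.2, Trimmomatic 0.33 and bcl2fastq 2.17, per the submitters' processing notes. Settings, read depths, the use of input and the fate of duplicate or multiply matching reads were not stated. For every peak the deposited lists give a fold enrichment, which is a linear ratio, and −log10 values of p and of q, and all of these are the authors' values. They served to rank or filter within 1 list, apart from a sum of −log10 q over the 5 lists that only picked which genes to name. The deposited score column was left out.

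Genes and starts came from RefSeq tables of GRCh38.p14, the same assembly as hg38. A strand and a start were found for 34 of 42 kinesin genes and for 15412 genes in all, and exons and introns were not assigned. A peak counted at an end when it overlapped, by at least 1 bp, the window of 1 kb to both sides. Promoter positions have no 0, and summit positions are distances from the start. All counts and shares were computed with Python 3.11.15, pandas 2.3.3 and NumPy 2.4.6, and the overlap code was tested on simulated peaks. Since each antibody has 1 library, no p-value was computed, and shares over all protein-coding genes are a description. The members, the gene lists, the named genes and the motifs were chosen with earlier results of these data known. Every kinesin gene could be named. The results turn on genes with H2AZ CST and no H3.3, genes with no end peak, and in the mitotic and transport groups the 4 genes with the highest summed −log10 q and the 3 with the largest H3K79me2 cover. Alternatives were windows of 500 bp and 2 kb, summits, a −log10 q of at least 5, the 10000 strongest peaks of each list, starts alone and, chosen after seeing the data, the first 10 kb, leaving out KIF2B and KIF4B, and H2A.Z without H3.3 at starts.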

Additional observations from a re-analysis of the deposited data

How the results depend on the processing

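Of 88 values recomputed under an alternative, 64 stayed within 1.5 times of the reported count or median and 24 moved further. With the 10000 strongest peaks of each list, mitotic genes with an end peak numbered 7 (H2AZ CST), 5 (H2AZ Abcam), 5 (H3.3) and 3 (H4K16ac) of 14, and transport genes 10 (H2AZ CST), 5 (H3.3) and 4 (H4K16ac) of 16, against 37.4%, 39.4%, 28.3% and 16.3% of all genes in these 4 lists. Under the same limit median H3K79me2 cover was 0.904% in mitotic and 0.602% in transport genes, the medians of H3.3 and H4K16ac were 0% in both groups, and 8 kinesin genes had H2A.Z without H3.3. By construction this limit leaves fewer peaks. At annotated starts 5 of 12 transport genes had H4K16ac, and with H3.3 sought at the ends alone 7 genes had H2A.Z without H3.3. Over the first 10 kb, chosen after seeing the data, median cover was taken in 11 mitotic and 12 transport genes only. In that order it was 64.0% and 15.9% for H3K79me2, 3.11% and 6.60% for H3.3, and 1.83% and 0% for H4K16ac. Without KIF2B and KIF4B, also chosen after seeing the data, the mitotic medians were 0.806% for H3.3 and 0.309% for H4K16ac. No paired analysis was possible because each antibody has 1 library. With unknown depth, an absent peak may lie under the calling limit, and an end window can hold a neighbour's peak.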
